A study of Homo sapiens with 6 samples.

Results

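Chromosomes 4, 13 and 18 carry fewer protein-coding genes for their length than any other human autosome, and their open chromatin in LNCaP prostate cancer cells is described here. The members are all ATAC-seq peaks placed on these chromosomes, a choice made by position and not by any measured value. They numbered 2980 of the 39780 peaks in the 3 deposited lists: the shCON CDT list gave 872 of 12096, the shCON DHT list 1070 of 12896 and the shRB CDT list 1038 of 14788. LNCaP is an established androgen-sensitive cell line, and all groups came from this 1 line. The shCON groups carried a control hairpin and the shRB group a hairpin against the retinoblastoma protein RB. Every group spent 72 hours in CDT, the hormone-deficient condition, and the shCON DHT group then received the androgen dihydrotestosterone (DHT) for 3 hours. RB-depleted cells with DHT are not among the groups. Each group had 2 libraries, combined by the authors into 1 list, so the spread between replicates is unknown and no p-value was computed. Neither the degree of RB depletion nor the identity of the cells could be checked, since a peak list names no gene and measures no RNA.

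In ATAC-seq a transposase inserts adapters into accessible DNA, and a peak marks a stretch with many insertions, most often a promoter or an enhancer. Gene-poor chromosomes are rich in AT bases, replicate late over long stretches and tend to lie towards the edge of the nucleus, where chromatin is compact. Promoters cluster where genes cluster, so open sites are usually sparse on such chromosomes. Chromosome 13 also carries RB1, the gene whose protein was depleted in the shRB cells.

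All 3 chromosomes were thinly covered by peaks in every list. Between the first and the last peak of any list they spanned 191, 95.4 and 78.0 Mb, together 13% of the autosomal span. They held 7.37% of the autosomal peaks in shCON CDT (exact 95% binomial interval 6.90 to 7.85), 8.51% (8.03 to 9.01) after DHT and 7.17% (6.75 to 7.60) in shRB CDT. Intervals in this text cover counting error only, and they take neighbouring peaks as independent, which they are not. Peak density in the shCON CDT, shCON DHT and shRB CDT lists was 2.39, 2.94 and 2.85 per Mb, while the other 19 autosomes had 4.51, 4.74 and 5.54. Chromosome 13 had the lowest density of the 22 autosomes in each list and chromosome 4 the next lowest. Chromosome 18 came next but 1 in each list, above chromosome 2. Counted per gene, the chromosomes together were above the rest in the shCON lists and just below them in shRB CDT, but the members differed. The RefSeq gene table (GRCh38.p14), used for gene numbers only, gave 1378 protein-coding genes on these chromosomes, 7.20% of the autosomal total of 19126. Peaks per 100 coding genes were 63.3, 77.6 and 75.3 in shCON CDT, shCON DHT and shRB CDT, beside 61.8, 64.8 and 75.8 on the other autosomes. Chromosome 4 had 59.1, 72.3 and 66.5 and chromosome 13 had 54.7, 70.1 and 69.8, so both were below the other autosomes in the CDT lists and above them after DHT. Chromosome 18 had 85.9, 102 and 107 peaks per 100 coding genes in the same order of lists, the highest autosomal value in each.

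**Figure D1:**
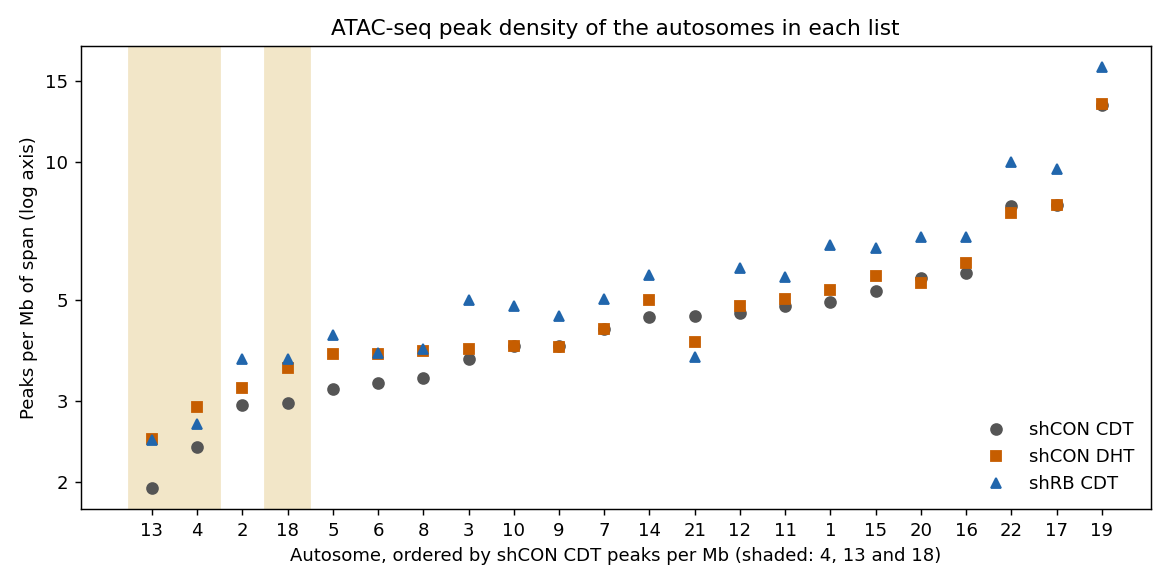
Peaks per Mb (log axis) on each autosome, ordered by the shCON CDT value, with 1 marker per peak list and chromosomes 4, 13 and 18 shaded. Chromosomes 13 and 4 sit lowest in all 3 lists. On chromosome 4 the shCON DHT marker lies above the shRB CDT marker, against the order on most autosomes. On chromosome 13 these markers nearly coincide (2.48 and 2.47 per Mb).

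Together these chromosomes gained proportionally more peaks with DHT than the other autosomes did. Chromosome 4 had 455 peaks in hormone-deprived control cells (shCON CDT), 557 after DHT and 512 with RB knocked down. Chromosome 13 had 185, 237 and 236, and chromosome 18 had 232, 276 and 290. Each of the 3 thus held the fewest peaks in hormone-deprived control cells, and chromosome 4 held the most after DHT. Together they had 22.7% more peaks in shCON DHT than in shCON CDT, while the other autosomes had 4.94% more. The odds of a peak lying on these chromosomes were 1.17 times as high in shCON DHT as in shCON CDT (exact conditional 95% interval 1.06 to 1.28). By this ratio of peak numbers chromosomes 13, 4 and 18 had the 3 highest values of the 22 autosomes, at 1.28, 1.22 and 1.19, without a clear step to the next. Chromosomes 5, 6 and 8 followed at 1.19, 1.16 and 1.15. The odds ratio of chromosome 18 alone, 1.13, had an interval (0.947 to 1.36) that reached 1, while chromosome 5 had 1.12 (1.00 to 1.26). The peaks were narrower after DHT, so the covered sequence did not grow: it was 0.959 times that of shCON CDT here and 0.874 times on the other autosomes. Among the 50% of peaks with the highest scores in each list, the odds ratio was 1.08 and its interval (0.936 to 1.24) reached 1. The 2 lists share many sites and these intervals treat their peaks as independent counts.

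For RB knockdown the increase of the chromosomes together was within counting error of that elsewhere. Their peak number in shRB CDT was 1.19 times that in shCON CDT, beside 1.23 times on the other autosomes, an odds ratio of 0.970 (0.883 to 1.07). The members differed in rank. Chromosome 4 had the second lowest ratio of the 22 autosomes at 1.13, whereas chromosome 13 at 1.28 and chromosome 18 at 1.25 ranked 4 and 6. Set against shCON DHT, the shRB CDT list was poorer here: its peak number was 0.970 times that of shCON DHT on chromosomes 4, 13 and 18 and 1.17 times on the other autosomes, an odds ratio of 0.830 (0.759 to 0.908). Chromosome 4 had the lowest value of any autosome in this comparison, 0.919. In the top 50% of each list this odds ratio was 0.941 (0.825 to 1.07). The 3 comparisons share lists, so they are not independent of each other.

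**Figure D2:**
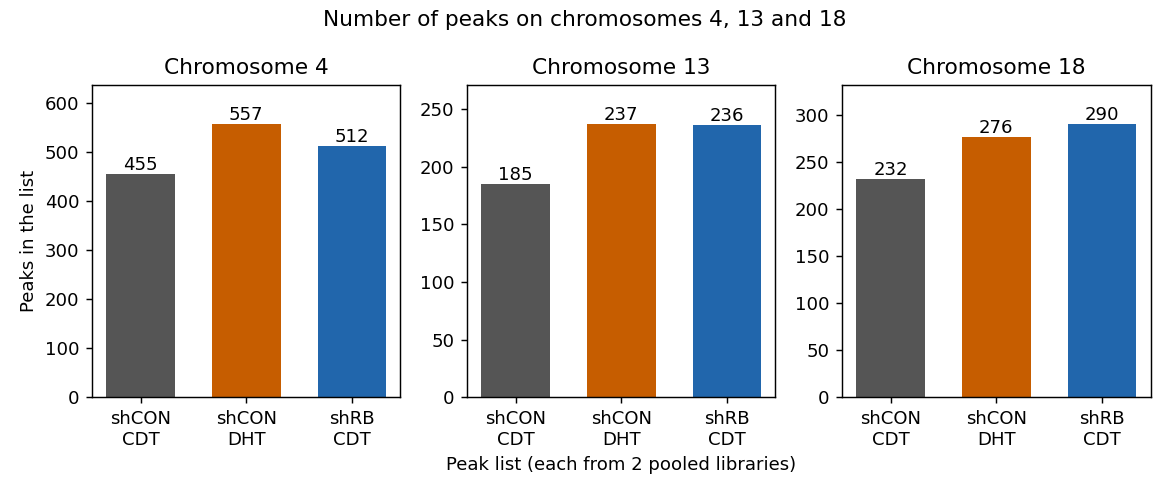
Number of peaks on chromosomes 4, 13 and 18 in each of the 3 lists, each list made from 2 pooled libraries; the vertical axes start at 0 and differ in range. On each chromosome shCON CDT is lowest (455, 185 and 232), and shCON DHT is highest on chromosome 4 (557).

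Member peaks were farther apart than peaks elsewhere, a measure that is not independent of their lower density per Mb. The median distance from a peak to its nearest neighbour in the same list was 70.2 kb (order-statistic 95% interval 63.5 to 80.0) in shCON CDT, 57.8 kb (50.9 to 62.9) after DHT and 53.4 kb (49.4 to 59.9) with RB knocked down. On the other autosomes it was 42.0, 38.9 and 34.2 kb. Chromosome 13 had the widest spacing of these chromosomes in shCON CDT, 93.2 kb, but not in shCON DHT, where it had 60.2 kb and chromosome 4 had 62.9 kb. Chromosome 18 was spaced more like the rest, at 63.6 kb in shCON CDT, 43.6 kb in shCON DHT and 44.2 kb with RB knocked down, which ranked 4, 10 and 9 of the 22 autosomes from the widest. Peaks with no other peak of their list within 500 kb made up 6.08% of members in shCON CDT (53 peaks), 5.51% after DHT (59) and 4.14% in shRB CDT (43), against 2.68%, 2.45% and 2.11% on the other autosomes. The odds ratios for such isolated peaks were 2.35 (1.70 to 3.18), 2.32 (1.71 to 3.11) and 2.00 (1.41 to 2.79). With 1000 kb in place of 500 kb they were 3.98, 3.42 and 5.77. Without chromosome 4, the shRB CDT value at 500 kb was 1.55 with an interval (0.882 to 2.55) that reached 1.

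Long stretches held no peak in any list. When overlapping peaks of the 3 lists were joined, these chromosomes carried 1589 of 21031 regions. Gaps of at least 1 Mb between neighbouring regions numbered 65 and took up 130 Mb, 35.7% of their span, while on the other autosomes they took up 17.1%. Chromosome 13 led all autosomes with 51.3% of its span in such gaps and chromosome 4 was next with 33.3%, whereas chromosome 18 with 22.5% was eighth. The longest gap was 5.83 Mb on chromosome 13 (hg19, 67805400 to 73632744), 4.40 Mb on chromosome 4 (27353903 to 31749922) and 4.23 Mb on chromosome 18 (14460875 to 18690877). Gaps here and elsewhere may include centromeres or other sequence where no read can be placed. Such sequence was not taken out, so a gap does not measure closed chromatin. The densest 1 Mb lay close to a chromosome end in each case. On chromosome 4 it began at 627623 with 30 regions, on chromosome 13 at 113462565 with 26 and on chromosome 18 at 76725211 with 25. In these windows 9, 10 and 10 regions were in shRB CDT only, and 4, 4 and 5 in shCON DHT only. Even these windows were among the least filled of their kind, since the densest 1 Mb of chromosomes 13 and 18 held fewer regions than that of any other autosome.

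Over whole lists, peak widths differed little from those elsewhere. Median widths for shCON CDT, shCON DHT and shRB CDT were 988 bp (933 to 1040), 751 bp (718 to 791) and 1013 bp (969 to 1052), beside 938, 780 and 994 bp on the other autosomes. Each interval for the members held the value of the other autosomes. Member peaks were thus the wider in the CDT lists and the narrower in the DHT list, without a difference beyond counting error. Widths were also compared at the 447 regions where each list had a single peak. In shCON CDT, shCON DHT and shRB CDT the member medians there were 1183, 1032 and 1218 bp. Member peaks were the wider in each list, beside 1092, 966 and 1166 bp at the 5661 such regions elsewhere. No interval was computed for these medians. There the shCON DHT peak had a median of 0.893 times (0.868 to 0.920) the width of its shCON CDT partner, and the other autosomes gave 0.894. For shRB CDT over shCON CDT the ratio was 1.01 (0.991 to 1.04) here and 1.04 (1.03 to 1.04) elsewhere. Of the 3 chromosomes, 18 had the lowest ratios, 0.862 (0.820 to 0.899) after DHT and 0.979 (0.936 to 1.05) after RB knockdown.

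The deposited score was read only as a rank within its list, with 1000 as a cap. Member peaks ranked lower than other peaks in the DHT list. Their median score percentile was 44.3 (41.4 to 47.3) in shCON DHT, beside 50.5 on the other autosomes, and 23.1% (20.6 to 25.7) of them stood at the cap, beside 27.5%. In shCON CDT the median percentile was 48.4 (45.1 to 51.0) beside 50.1, and in shRB CDT it was 49.97 (47.4 to 53.0) beside 49.9. In the better-scoring 50% of shCON DHT, 3478 of 6448 peaks stand at the cap, so the median there is the cap itself and is not read. The odds ratio of standing at the cap was 0.790 (0.679 to 0.917) in the full list and 0.894 (0.738 to 1.08) in that part. The members did not rank alike. In shCON CDT, chromosome 4 had a median percentile of 51.5 and 34.7% of its peaks at the cap, while chromosome 13 had 46.2 and 24.3%, and chromosome 18 had 42.3 and 28%. In shCON DHT chromosomes 13 and 18 had the lowest median percentiles of the 22 autosomes, 41.9 and 44.0, and in shRB CDT chromosome 18 was lowest with 44.8. Without chromosome 4 the shCON CDT difference from the other autosomes was -5.47 percentile points (-9.80 to -1.54), beyond counting error.

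Sharing between the lists separated the DHT peaks from the others. A peak was called shared where it overlapped a peak of the other list by at least 1 bp. Of the 1070 member peaks in shCON DHT, 450 had no counterpart in shCON CDT, which leaves 57.9% (54.9 to 60.9) shared, beside 63.9% (63.0 to 64.8) on the other autosomes, an odds ratio of 0.778 (0.683 to 0.885). Over the whole list, 36.7% of shCON DHT peaks had no shCON CDT counterpart. Against shRB CDT the difference was larger: 402 member peaks had no counterpart, and 62.4% (59.5 to 65.3) were shared, beside 70.1% (69.2 to 70.9), an odds ratio of 0.709 (0.622 to 0.810). Over the whole list 30.6% of shCON DHT peaks were missing from shRB CDT. On chromosome 18 the shared proportions of shCON DHT peaks, 51.1% with shCON CDT and 59.8% with shRB CDT, were the lowest of any autosome. Chromosomes 4 and 13 had 60.9% and 59.1% with shCON CDT and 63.0% and 64.1% with shRB CDT. These were not extreme: with shCON CDT, chromosomes 8 (56.5%) and 5 (58.0%) were lower than both, and with shRB CDT, chromosomes 21 (61.5%) and 8 (61.8%) were.

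The lower sharing of DHT peaks was also found below the score cap, but at the cap and among isolated peaks it was within counting error. Among the 823 member peaks of shCON DHT below the cap, 46.7% were shared with shCON CDT and 52.2% with shRB CDT, beside 51.2% and 59.3% on the other autosomes, with odds ratios of 0.834 (0.720 to 0.965) and 0.749 (0.648 to 0.868). At the cap, 11 of 247 were absent from shCON CDT and 9 from shRB CDT. The whole list had 2.76% and 1.87% of its capped peaks absent, and the odds ratios of 0.563 (0.293 to 1.19) and 0.441 (0.212 to 1.03) had intervals that reached 1. Among the 59 isolated member peaks the shared proportions were 39.0% and 44.1%, beside 40.4% and 43.6% for isolated peaks elsewhere. In the top 50% of each list, the odds ratio was 0.800 (0.653 to 0.983) with shCON CDT. With shRB CDT it was 0.818 (0.650 to 1.04), with an interval that reached 1.

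Peaks of the hormone-deprived lists were shared here about as often as elsewhere, or somewhat more often. Of the shCON CDT members, 234 of 872 had no counterpart in shRB CDT, so 73.2% (70.1 to 76.1) were shared, beside 73.1% on the other autosomes, and 26.8% of the whole list had none. With shCON DHT, 278 had no counterpart and 68.1% (64.9 to 71.2) were shared, beside 65%, where the whole list had 34.6% unshared. Of the shRB CDT members, 410 of 1038 had no counterpart in shCON CDT and 60.5% (57.5 to 63.5) were shared, beside 58.9%, with 40.9% of the whole list unshared. With shCON DHT, 406 had none and 60.9% (57.8 to 63.9) were shared, beside 57.4%, with 42.1% of the whole list unshared. The odds ratio of this last pair, 1.16 (1.02 to 1.32), was not stable. It was 0.979 (0.819 to 1.17) without chromosome 4, and its interval also reached 1 in 5 other settings, with values from 1.08 to 1.15.

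Chromosome 18 pulled against the other members in these 4 pairs. Of its shCON CDT peaks 67.2% were in shRB CDT and 58.6% in shCON DHT, while chromosome 13 had 78.9% and 73.0%, the highest of the 22 autosomes in both. Of its shRB CDT peaks 51.7% were in shCON CDT, the lowest of any autosome, while chromosomes 4 and 13 had 64.3% and 63.1%. Without chromosome 18, the odds ratios were 1.24 (1.06 to 1.45) for shRB CDT peaks in shCON CDT and 1.36 (1.13 to 1.63) for shCON CDT peaks in shCON DHT, both above 1 beyond counting error. Unshared member peaks ranked low in every pair, with median score percentiles from 21.2 to 24.6 within their lists. Unshared peaks of the other autosomes ranked similarly low, from 20.8 to 26.4.

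**Figure D3:**
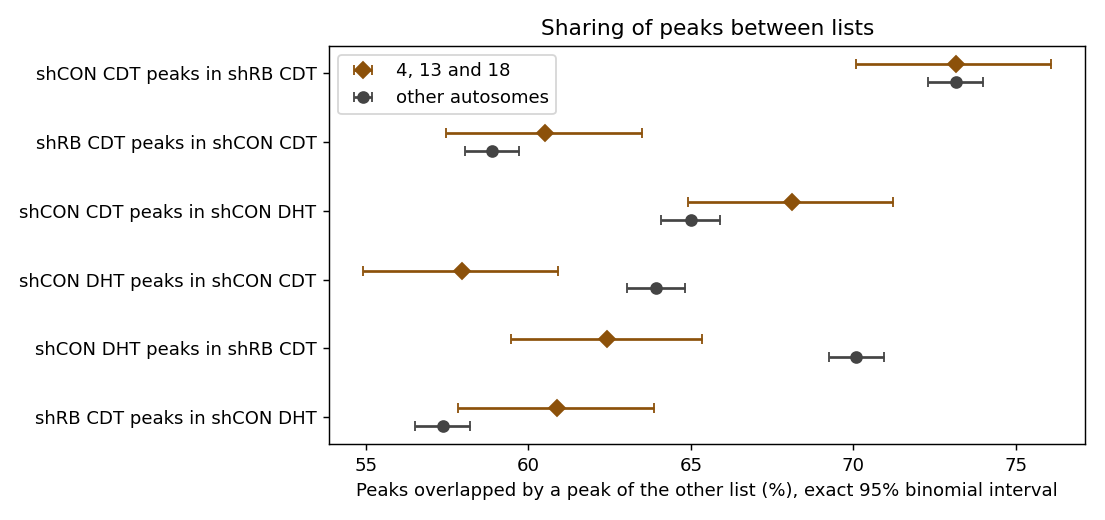
Share of the peaks of 1 list that overlap a peak of another list, for chromosomes 4, 13 and 18 (diamonds) and the other autosomes (circles), with exact 95% binomial intervals. The shCON DHT peaks of chromosomes 4, 13 and 18 lie clear to the left of the other autosomes in both pairs (57.9% and 62.4% against 63.9% and 70.1%).

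Joined regions restate this sharing without counting a site more than once. They come from the same peaks, so they are not separate support. Regions with a peak in shCON DHT only numbered 342 of 1589, or 21.5% (19.5 to 23.6), beside 15.1% (14.6 to 15.6) on the other autosomes and 15.7% of all regions, an odds ratio of 1.54 (1.35 to 1.75). Chromosome 4 had 166 (21.1%), chromosome 13 had 74 (22%) and chromosome 18 had 102 (21.9%), the 3 highest proportions of the 22 autosomes. Chromosome 8 came next at 20.6%. These regions were short, with a median of 459 bp, beside 689 bp for those in shRB CDT only, much as on the other autosomes, where the medians were 480 and 701 bp. In the top 50% of each list the odds ratio was 1.26 and its interval (0.966 to 1.62) reached 1.

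Regions in shRB CDT only made up a smaller proportion here than elsewhere, a difference that did not hold in every setting. All classes divide the same regions, so the higher proportion in shCON DHT only leaves less for every other class. They numbered 315, or 19.8% (17.9 to 21.9), beside 23% on the other autosomes and 22.5% of all regions, an odds ratio of 0.829 (0.727 to 0.943). Chromosome 4 had 137 (17.4%), the second lowest proportion of the 22 autosomes. Chromosome 13 had 65 (19.3%) and chromosome 18 had 113 (24.2%). Without chromosome 4 the odds ratio was 0.955 (0.801 to 1.13), and with every list shortened to the length of the smallest it was 0.858 (0.729 to 1.01). In the better-scoring 50% it was 0.876 (0.693 to 1.10). Regions in shCON CDT only numbered 184 (11.6%, 10.05 to 13.3), beside 12.7% elsewhere and 12.6% of all regions. Of these, 29 lay on chromosome 13, where they made up 8.61%, the lowest proportion of any autosome, and 69 on chromosome 18 (14.8%).

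Regions in 2 of the lists were few. Those in shCON CDT and shRB CDT numbered 83 (5.22%), beside 6.76% on the other autosomes and 6.66% of all regions. The odds ratio was 0.760 (0.598 to 0.956), so regions in both hormone-deprived lists and not after DHT made up a smaller proportion here. For chromosomes 4, 13 and 18 alone it was 0.740, 0.870 and 0.716, each with an interval that reached 1. Other settings were not tried for this class. Those in shCON CDT and shCON DHT numbered 47 and those in shCON DHT and shRB CDT 89, beside 2.69% and 5.90% of all regions, with odds ratios of 1.13 (0.818 to 1.54) and 0.958 (0.758 to 1.20).

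Regions open in all 3 conditions made up 33.3% (31.0 to 35.7) of the members' regions, 529 in number, beside 34.0% on the other autosomes and 34.0% of all regions. Chromosomes 4 and 13 had 36.0% and 35.3%, whereas chromosome 18 with 27.3% (23.3 to 31.5) had the lowest proportion of the 22 autosomes. Per Mb, the members had 1.45 such common regions against 2.66 on the other autosomes, and 0.865 against 1.80 regions in shRB CDT only. For regions in shCON DHT only the densities were closer, 0.939 against 1.18 per Mb.

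**Figure D4:**
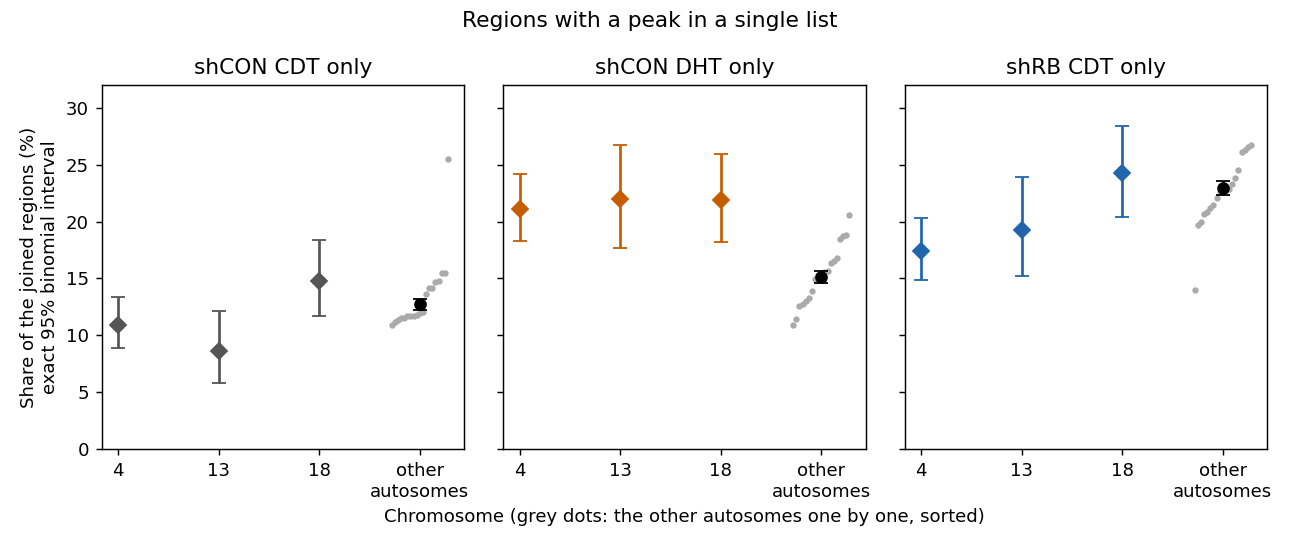
Share of the joined regions of chromosomes 4, 13, 18 and the other autosomes together that have a peak in a single list, with exact 95% binomial intervals; grey dots are the other 19 autosomes one by one. In the middle panel all 3 chromosomes (21.1%, 22% and 21.9%) sit above every grey dot.

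The proportion of regions in shCON DHT only fell with regional density across autosomes in general. Spearman's rho between this proportion and regions per Mb was -0.82 over 22 autosomes and -0.75 over the 19 without chromosomes 4, 13 and 18. For regions in shRB CDT only it was 0.32 and 0.18. These are descriptions across chromosomes of the same lists, with no test, and both measures use the same regions.

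Regions were then compared within bands of local density, given by the number of other joined regions within 500 kb. A member region had a median of 7 such neighbours, and a region elsewhere 11. With 0 to 1 neighbours, 34.3% of 105 member regions were in shCON DHT only, beside 29.5% elsewhere, an odds ratio of 1.25 (0.775 to 1.98). With 2 to 3 neighbours, 29.7% of 256 member regions were in shCON DHT only, beside 22.4% elsewhere, an odds ratio of 1.47 (1.07 to 1.99). With 4 to 6 and with 7 to 10 neighbours the proportions were 20.2% and 16.3%, beside 19.5% and 16.0%, with odds ratios of 1.05 (0.804 to 1.35) and 1.02 (0.772 to 1.34). With 11 or more neighbours 71 of 355 were in shCON DHT only, beside 11.9% elsewhere, an odds ratio of 1.85 (1.40 to 2.43). That band has no upper limit and held 355 of 1589 member regions against 10155 of 19014 elsewhere, so density is not matched within it. The proportion in shRB CDT only was below that of the other autosomes in the 4 sparser bands. From the sparsest on it was 19.05%, 14.8%, 16.2% and 19.5%, beside 21.8%, 22.6%, 22.1% and 23.2%, and the odds ratio excluded 1 with 2 to 3 (0.596, 0.401 to 0.869) and 4 to 6 neighbours (0.683, 0.513 to 0.899). With 11 or more it was 28.5% beside 23.2%, and there the odds ratio of 1.31 (1.03 to 1.67) excluded 1 in the other direction. A member region in shCON DHT only lay a median of 231 kb (183 to 272) from the nearest common region, and one in shRB CDT only 141 kb (111 to 173), beside 120 and 90.1 kb on the other autosomes.

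**Figure D5:**
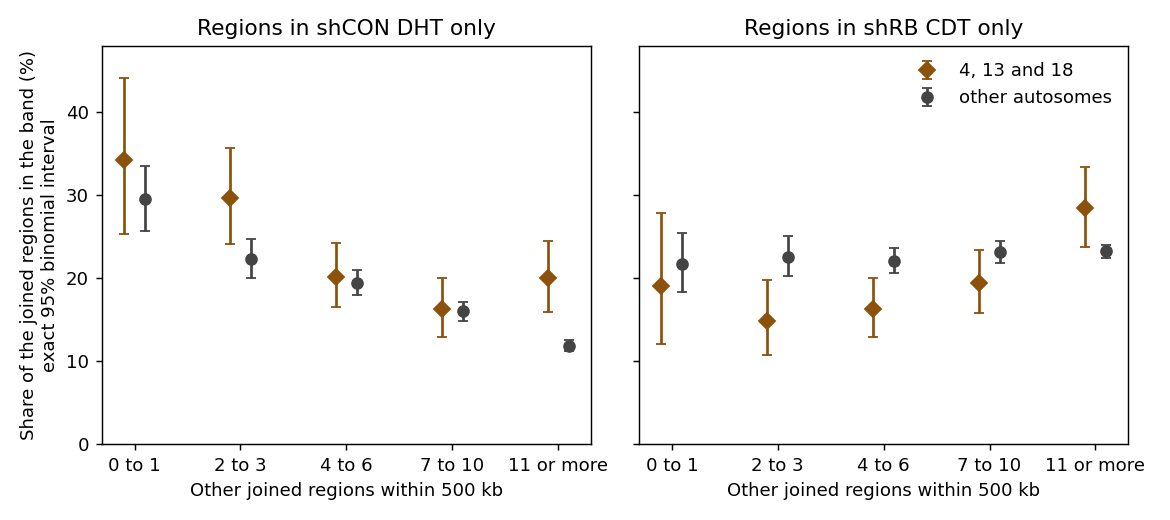
Share of joined regions in shCON DHT only (left) and in shRB CDT only (right) within bands of local density, the number of other joined regions within 500 kb, with exact 95% binomial intervals; diamonds are chromosomes 4, 13 and 18 and circles the other autosomes. The shCON DHT share falls from 34.3% in the sparsest band to 16.3% with 7 to 10 neighbours on these chromosomes and is higher again (71 of 355) in the densest band.

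The ends and interiors of the chromosome spans differed, as they did on the other autosomes. A span begins at its first peak, which on chromosome 13 lies beyond 10 Mb. The first end of that span is therefore not the end of the chromosome. Of the 218 member regions within 3 Mb of either end of the span, 29.8% (23.8 to 36.4) were in shRB CDT only and 14.2% (9.87 to 19.6) in shCON DHT only. Among the 1371 interior regions the order was reversed, with 18.2% (16.2 to 20.4) and 22.7% (20.5 to 25). The other autosomes also had more regions in shRB CDT only near their ends (27.6%, and 22.4% inside) and fewer in shCON DHT only (11.4%, and 15.6% inside). Among the members the end proportion in shRB CDT only was 38.1% on chromosome 18 and 32.4% on chromosome 13, while chromosome 4 had 17 of 81 at its ends and 120 of 705 inside.

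In windows of 10 Mb the extra peaks of both comparisons were widely spread. Of the 39 windows on these chromosomes, 31 had more peaks in shCON DHT than in shCON CDT, 7 had fewer and 1 had no peak in either. For shRB CDT against shCON CDT the tally was similar, with 30 windows higher and 9 lower. Windows of the other autosomes were not tallied, and both lists are longer than shCON CDT. These counts therefore do not set the chromosomes apart from the rest. On chromosome 4 the window from 180 to 190 Mb had 18 shCON CDT, 38 shCON DHT and 24 shRB CDT peaks, and 17 of its 42 regions were in shCON DHT only. On chromosome 13 the window from 80 to 90 Mb had 2, 9 and 1 peaks in the same order, and 8 of its 10 regions were in shCON DHT only. On chromosome 18 the window from 60 to 70 Mb had 15, 29 and 20 peaks. The last window of chromosome 18, from 70 Mb on, went the other way, with 36, 33 and 55 peaks and 33 of 87 regions in shRB CDT only. These windows were singled out after their values were seen.

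Runs of neighbouring regions with a DHT peak and nothing in the other lists reached 6 on chromosome 4, 5 on chromosome 13 and 3 on chromosome 18. The run on chromosome 13 extended over 5.86 Mb, from 82464009 to 88323915. Its first pair of peaks lay 0.099 kb apart. Its peaks were 219 to 693 bp wide with scores from 510 to 582, and the last of them was 3676 kb from the nearest other shCON DHT peak. The run on chromosome 4 lay within 0.540 Mb, from 7230314 to 7770660, with peaks of 249 to 457 bp and scores from 431 to 551. The score percentiles of these peaks ran from 5.74 to 36.8. The longest run in shRB CDT only was 5 regions on chromosome 13, from 111997013 to 112323237, and also 5 on chromosome 18, from 47257194 to 47458597.

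The highest-scoring peak of each chromosome, with ties at the cap broken by width, was at a site open in all 3 conditions in every list. In shCON CDT these were chr4:184424968-184427629, chr13:52025756-52027973 and chr18:48722639-48724917. The chromosome 4 peak was at the cap in all 3 lists, 2662 bp wide in shCON CDT but 1768 bp after DHT and 1676 bp after RB knockdown. In shCON DHT they were chr4:52708715-52711077, chr13:28194438-28196421 and chr18:60382143-60384157. The chromosome 18 site kept a similar width throughout, 2047 bp before DHT, 2015 bp after it and 2258 bp after RB knockdown. In shRB CDT they were chr4:77869700-77872315, chr13:20531716-20533987 and chr18:70534454-70536809. At the last of these the score was 1000 in shRB CDT, 846 in shCON CDT and 458 in shCON DHT, although the shCON DHT peak was the widest at 2536 bp. Genes at these sites are not named, because no hg19 annotation was used here.

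A small number of high-scoring sites were missing from another list. For RB knockdown, 14 of the 348 capped shRB CDT members had no shCON CDT counterpart, beside 5.41% of all capped peaks of that list. The leading pair, chr18:29264376-29266053 and chr4:4542950-4544423, both overlapped shCON DHT peaks. They were 186 and 251 kb from the nearest shCON CDT peak. In the other direction 1 of 268 capped shCON CDT members was absent from shRB CDT, at chr13:38923540-38924538, where the whole list had 1.73% absent. That site had a shCON DHT peak of 1110 bp with a score of 796, and the nearest shRB CDT peak was 687 kb away. Next, below the cap, was chr18:12703346-12703501, 156 bp wide with a score of 997. It lay only 0.07 kb from a shRB CDT peak, so its absence rests on the overlap rule.

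For DHT, the leading shCON DHT peaks absent from shCON CDT were chr18:43753355-43754770, 1416 bp wide, and chr13:20207361-20208346, 986 bp wide. Both had a shRB CDT peak, of 1653 bp with a score of 687 and of 726 bp at the cap. Of the 268 capped shCON CDT members 4 were absent from shCON DHT, beside 4.55% of the whole list's capped peaks, an odds ratio of sharing of 3.27 (1.24 to 12.2) over the other autosomes. The widest was chr4:78739857-78741853. It was 1997 bp wide in shCON CDT and 2115 bp in shRB CDT, at the cap in both, and 76.4 kb from the nearest shCON DHT peak. The next was chr18:33876761-33878188, with a shRB CDT peak of 1888 bp and a score of 963.

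Between shRB CDT and shCON DHT, 13 of 348 capped shRB CDT members had no counterpart, beside 6.91% of all capped peaks of that list. The chromosome 4 site at 78739717 was first, and chr13:113596953-113598817 was next. The latter had a shCON CDT peak of 1376 bp with a score of 655, and lay 23.8 kb from the nearest shCON DHT peak. The capped shCON DHT members absent from shRB CDT were led by chr4:122790859-122792070 and chr4:82392634-82393432. Both sites had a shCON CDT peak, with scores of 716 and 715, and the nearest shRB CDT peaks were 45.5 and 256 kb away.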

How the data were processed

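ATAC-seq was run on 6 LNCaP libraries in 3 groups of 2, with 75000 cells per reaction and 30 minutes of transposition at 37 °C, per the labels' protocols. The authors combined the 2 libraries of a group into 1 peak list, where the list names give an IDR (irreproducible discovery rate) threshold of 0.1, filtering, merging and scoring, per the labels. Positions are on hg19 according to the submitters' processing notes. Which aligner and peak caller were used, and whether reads were shifted, is not given in the sources used here. The deposited score is a whole number from 413 to 1000. The lists hold no read counts, so depth is unknown, and a missing peak does not measure closed chromatin.

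Values came from scripts in Python 3.11.15 (scipy 1.17.1, pandas 2.3.3, numpy 2.4.6). Overlap counts equalled those of bedtools 2.31.1 for all 6 pairs of lists, and 7 of 7 checks on simulated data found no error. Percentiles are ranks within 1 list. Chromosome spans run from the first to the last peak in any list. Intervals are 95%: exact binomial for shares, exact conditional for odds ratios, and order-statistic for medians. Positions are counted from 1. The labels do not say whether the 2 libraries of a group were separate cultures. The chromosomes, measures and lists were chosen with earlier results of these data known. Named sites are the highest-scoring peak per chromosome and list, the 2 highest-scoring unshared members per comparison and direction, the longest gap and the densest 1 Mb. The local density bands, end and interior split, runs and 10 Mb windows were chosen after the data were examined. Chromosomes X and Y were left out of the comparisons with the other autosomes. Whole-list proportions, score percentiles and lists cut by score used every chromosome in the lists. No sequence is printed, for want of an hg19 genome.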

Additional observations from a re-analysis of the deposited data

How the results depend on the processing

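The settings tried were only the better-scoring 50% of each list, lists cut to 12096 peaks, and each member chromosome left out. Others were the other autosomes without chromosome 19, 3 other rules for overlap, and isolation distances of 100 and 1000 kb. A further setting, chosen after seeing the data, left out the outer 3 Mb of each chromosome's span. Of 188 values recomputed for the main measures, 165 stayed within the counting interval of the reported value, 22 moved beyond it and 1 turned. Of the values for isolated peaks and capped peaks, 41 stayed and 7 moved, 4 of them with another isolation distance and 3 without chromosome 4. The other rules for overlap and the removal of the outer 3 Mb moved none of these that far, but some intervals came to reach or leave 1. For shRB CDT peaks in shCON DHT, a 50% reciprocal overlap gave 1.10 (0.963 to 1.25), peaks reset to 500 bp 1.13 (0.993 to 1.29), lists of one length 1.14 (0.977 to 1.32), the better-scoring 50% 1.08 (0.888 to 1.32) and leaving out chromosome 13 1.15 (0.991 to 1.33). For shCON CDT peaks in shCON DHT, removing the outer 3 Mb gave 1.19 (1.01 to 1.41) and leaving out chromosome 19 1.17 (1.00 to 1.36). Without chromosome 18, regions in shCON CDT only gave 0.783 (0.637 to 0.955). In the better-scoring 50%, members made up 7.60% of autosomal shCON DHT peaks. The width ratio to the other autosomes there was 1.11 (1.06 to 1.15) in shCON CDT, beyond counting error. In shCON DHT it was 1.05 (0.990 to 1.10). The shCON DHT spacing ratio was 1.73 and its score percentile difference 0, where both medians fell on the cap and the measure is void. The odds ratios there were 0.941 for peak number in shRB CDT over shCON DHT, 0.818 for shCON DHT peaks in shRB CDT and 1.26 for regions in shCON DHT only. Without chromosome 19, members made up 7.89%, 9.08% and 7.67% of the peaks in shCON CDT, shCON DHT and shRB CDT, by construction. With lists cut to one length the shRB CDT spacing ratio was 1.82. Without chromosome 4, the spacing ratios were 1.19 in shCON DHT and 1.39 in shRB CDT, the score percentile differences -5.47 in shCON CDT and -2.67 in shRB CDT, and the odds ratios 0.920 for shRB CDT peaks in shCON CDT, 0.979 (turned from 1.16) for shRB CDT peaks in shCON DHT, 0.955 for regions in shRB CDT only and 0.858 for regions in all 3 lists. Without chromosome 18, the odds ratios were 1.24 for shRB CDT peaks in shCON CDT, 1.36 for shCON CDT peaks in shCON DHT and 1.08 for regions in all 3 lists. Apart from what follows from shorter lists or fewer chromosomes, the cause was not tested. No paired analysis was possible because replicates 1 and 2 of a group stand in a single deposited list, and leaving out a replicate was likewise not possible.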
